A study of Homo sapiens with 9 samples.

Results

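The proteins of the cytosolic ribosome were followed at the RNA level in SKMEL28 cells, a human melanoma line. Their genes were taken as every row of the count table whose symbol is RPL or RPS with a number, with or without a final A or X, together with RPLP0, RPLP1, RPLP2 and RPSA. This gave 78 of the 48162 rows, 31 for proteins of the small (40S) subunit and 47 for proteins of the large (60S) subunit. They carry 77 symbols, because RPL26 stands on 2 rows. FAU, which encodes a ribosomal protein fused to a protein like ubiquitin, and RACK1, which is listed under its older symbol GNB2L1, do not match the rule and are given apart.

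All cells were kept in DMEM with 5% FBS and carried lentiviral pLKO.1 hairpins. The hairpin of shCont cells was directed against GFP, that of shp16 cells against p16, an inhibitor of the cell cycle kinases CDK4 and CDK6, and shp16/shATR cells carried hairpins against p16 and against ATR, a kinase that responds to replication stress. Infected cells were selected with 1 µg/ml puromycin for 3 days. Each group had 3 libraries. The sources used here do not say that they came from separate cultures, so the p-values measure only the spread between these libraries, which may be technical. The study describes its panel of lanosterol synthase mRNA as a single experiment with 3 technical replicates. Sequencing is its only stated method for mRNA levels. If that panel came from these libraries, the p-values hold no spread between cultures. Which ATR hairpin was used for sequencing, and whether the shp16 cells also received a control virus, are not given in the sources used here.

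A ribosome holds a single copy of most of these proteins, and cells keep their production in balance, since a subunit that lacks a protein is not completed. Their mRNAs are short, abundant and stable, and they begin with a C followed by a run of C and T bases, the 5′ terminal oligopyrimidine (TOP) motif, through which mTORC1 signalling controls their translation. Translation through this motif can change while the mRNA level does not, and the libraries measured the mRNA level only. In bulk RNA, fewer cells of a kind and less RNA per cell cannot be told apart.

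The TOP motif is a sequence feature that many members share, so the annotated start sites of 6 genes on which the comparisons turn are printed. They are placed here by the log2 fold change of shp16 against shCont without the library labelled shCont replicate 1, which is described below. In that fit RPS6 and RPL24 had the largest rises and RPL36 lay near the middle of the class. RPS19, RPL28 and RPL37A showed almost no change. Each line holds 60 bases before the RefSeq start site and 30 bases from it, in GRCh38.p14, so the start base is base 61, and capitals mark the longest run of C and T bases within 20 bases on either side of the start.
RPS6, chr9:19380207-19380296, minus strand: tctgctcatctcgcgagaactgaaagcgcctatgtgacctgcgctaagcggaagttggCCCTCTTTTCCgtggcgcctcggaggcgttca
RPL24, chr3:101686689-101686778, minus strand: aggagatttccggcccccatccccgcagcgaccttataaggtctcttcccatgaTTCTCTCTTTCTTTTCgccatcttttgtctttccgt
RPL36, chr19:5690235-5690324, plus strand: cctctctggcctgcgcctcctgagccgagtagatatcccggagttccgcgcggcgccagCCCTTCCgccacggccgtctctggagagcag
RPS19, chr19:41860195-41860284, plus strand: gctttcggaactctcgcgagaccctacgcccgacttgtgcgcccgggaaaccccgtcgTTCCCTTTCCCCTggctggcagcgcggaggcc
RPL28, chr19:55385872-55385961, plus strand: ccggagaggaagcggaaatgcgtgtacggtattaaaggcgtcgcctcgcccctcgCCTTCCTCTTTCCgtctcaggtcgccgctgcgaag
RPL37A, chr2:216498784-216498873, plus strand: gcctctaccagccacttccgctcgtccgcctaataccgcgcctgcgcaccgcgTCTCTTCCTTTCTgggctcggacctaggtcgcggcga
In all 6 printed windows the C and T run covers the start base. This holds for the genes with the largest rises in that fit and for the others. The run is 16 bases long in RPL24, 13 in RPS19, RPL28 and RPL37A, 11 in RPS6 and 7 in RPL36. RPS19 has a further annotated start, which is not printed. There the longest run is 6 bases and ends before the start base.

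RefSeq windows of 300 bases were matched to 62 of the 77 symbols and gave 77 windows, since some genes have several starts. A start base C followed by 4 bases that are each C or T was found in 59.7% of the members' windows and in 4.07% of all 35116 windows. The same start was found in 75% of the windows of other TOP genes, such as translation elongation factors, and in 8.99% of those of ribosome biogenesis genes, which build the ribosome without being part of it. The letters CCGGAAG, searched on both strands of the whole window, were found in 33.8% of the members' windows and in 10.3% of all windows.

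Per length, the members were among the most abundant RNAs of these cells. FPKM values (counts scaled by gene length and library total) had a median of 275.3 over the 78 rows, 61 rows had a mean of 100 or more over the 9 libraries, and 32 were among the 100 highest genes of the whole table. RPS2, which lines the mRNA entry of the 40S subunit, was the highest with a mean FPKM of 1081. RPL8, near the peptidyl transferase centre, followed with 963, then RPL11 with 914, RPL19 with 784 and RPL14 with 776. RPL36, a small protein of the 60S subunit, had a mean FPKM of 223. Most of this order is not resolved: neighbours had ranges over the 9 libraries that did not overlap at only 3 steps, between RPL23A and RPL26, between RPS23 and RPS15A, and between RPL36A and the second row of RPL26.

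**Figure D1:**
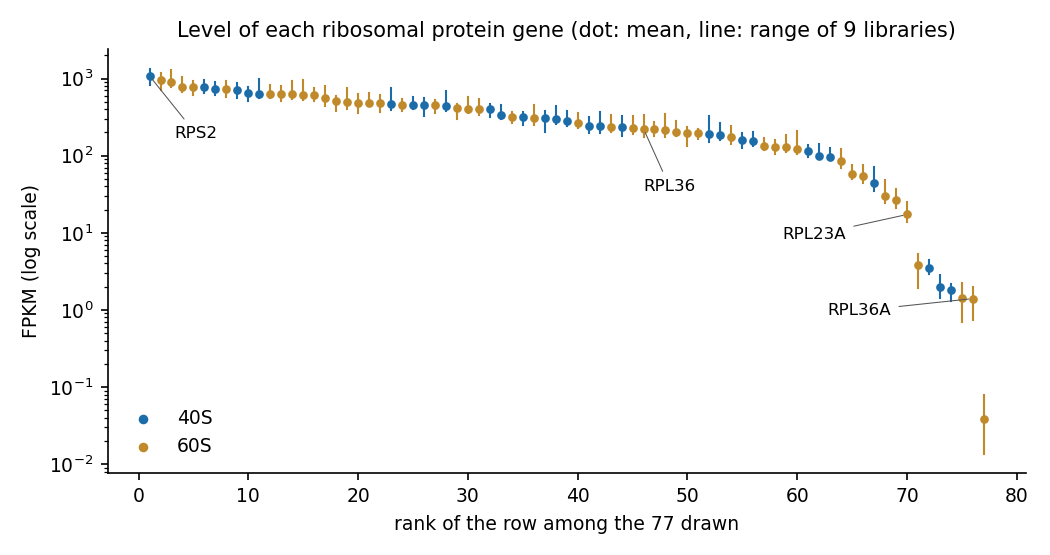
FPKM (log scale) of 77 of the 78 rows in order of their mean, with a dot for the mean and a line for the range of the 9 libraries, 40S proteins in blue and 60S proteins in yellow. Most rows lie above 100, 7 rows lie below RPL23A, and the lowest drawn is the second row of RPL26.

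A small set of members lay far below the others. RPL23A had a mean FPKM of 17.3, and rows below it were RPL26 (3.83), RPS23 (3.49), RPS15A (1.97), RPS10 (1.80), RPL17 (1.43) and RPL36A (1.40), then the other row of RPL26 (0.0389). All of these are regular parts of the ribosome. In the table's own coordinates RPL17, RPS10 and RPL36A are each covered over 96.5% or more of their span by a read-through or unnamed row on the same strand that has 0 counts in every library. The 2 rows of RPL26 overlap each other. RPS23 shares 67% of its span with ATG10 on the other strand, and the kit is not stated to keep strand.

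Reads that fit more than 1 gene or place could have been set aside by the counting, whose handling of such reads is not given in the sources used here, so the levels of these low members are uncertain and the cause was not tested. Across the class, 29 of the 78 rows overlap another row that has at least 100 counts, 27 of them one on the opposite strand. Rows named as pseudogene copies of the members, by a member's symbol followed by P and a number, numbered 627. They held between 0.0323% and 0.0463% of a library's counts. This is small beside the share of the members as a class. The highest of these rows were RPS2P46 with 24839 counts in all and RPL41P1 with 18073. For the low member RPL23A the copies were not small. Its own row had 4978 counts in all, against 3230 for RPL23AP79 and 1854 for RPL23AP7. Whether reads of RPL23A were placed on these copies was not tested.

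The targets of the hairpins were examined as a check of the labels. ATR stood at 45.9, 93.5 and 96.4 CPM (counts scaled to the TMM-adjusted library size) in shCont replicates 1, 2 and 3, at 93.5, 83.4 and 85.6 in shp16, and between 39.9 and 41.0 in the 3 shp16/shATR libraries. The library labelled shCont replicate 1 thus lay at the level of the ATR knockdown although no ATR hairpin is named for it. ATR is a long gene of 8249 exonic bases. Why ATR was low in that library was not tested. CDKN2A, which encodes p16, stood at 162, 113 and 103 CPM in shCont, 78.1, 93.5 and 99.9 in shp16 and 82.6, 90.0 and 82.4 in shp16/shATR. The log2 fold change of ATR in shp16/shATR against shp16 was −1.12 (SE 0.22, adjusted p = 0.0128 by edgeR's quasi-likelihood test, used throughout). This call ended without shp16 replicate 1 or any one of the shp16/shATR libraries (adjusted p between 0.0554 and 0.0707). The log2 fold change of CDKN2A in shp16 against shCont was −0.48 (SE 0.163, adjusted p = 0.0723), short of the threshold of 0.05. It was −0.26 (adjusted p = 0.0681) without the library labelled shCont replicate 1 and −0.16 (adjusted p = 0.0817) without that library and shp16 replicate 1, and it passed the threshold without shCont replicate 3 (−0.60, adjusted p = 0.03), with DESeq2 (−0.47, adjusted p = 0.0493), with no filter on low counts and with the trend of each library with gene length removed.

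The library labelled shCont replicate 1 stood apart in many genes. Its counts differed from those of the other shCont libraries with a chi-square per degree of freedom of 68.5 and 83.4, against 5.15 between replicates 2 and 3. The mean gene length weighted by counts was 3610 bases in it and between 4136 and 4191 in the other 8 libraries. In shp16 replicate 1, the corresponding chi-square values were 37.9 and 37.2, the share of mitochondrially encoded counts was 7.24% (4.25% in both other shp16 libraries) and the summed level of 8 melanocyte markers was 7769 CPM, against 10941 to 15002 in all others. All 8 melanocyte markers were above 1 CPM on average. Total counts were between 17314662 and 23588174.

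Markers of other cell types were low but not all even between groups. The summed level of the 3 epithelial markers was between 0.257 and 0.549 CPM in shCont, between 4.34 and 5.26 in shp16 and between 2.00 and 5.08 in shp16/shATR, and KRT5 and KRT14 were called higher in both comparisons with shCont. The 3 fibroblast markers summed to between 32.3 and 42.5 CPM in shCont, 27.0 and 45.0 in shp16 and 29.4 and 32.8 in shp16/shATR. Only 1 of the 3 had a mean of 1 CPM or more. In shp16 against shCont 0 of them were called with all libraries, and 2, COL1A1 among them, were called higher without the library labelled shCont replicate 1. In shp16/shATR against shCont 1 of them was called higher with all libraries. The endothelial marker VWF was called higher in that comparison without the library labelled shCont replicate 1 (log2 fold change 1.07, adjusted p = 0.036). The leukocyte markers PTPRC and CD3E were at 0 in every library. The part of these markers in the results below was not tested.

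The members took a larger share of that control library than of any other. They held 5.55%, 3.72% and 3.50% of the counts in shCont replicates 1, 2 and 3, which gives 4.25% ± 1.12 (SD, n = 3). In shp16 the shares were 4.36%, 4.25% and 4.24% (4.28% ± 0.0657, SD, n = 3), and in shp16/shATR libraries a, b and c they were 4.01%, 3.94% and 4.10% (4.02% ± 0.0830, SD, n = 3). The shp16 and shp16/shATR libraries lay in a narrow band, with every shp16/shATR library below every shp16 library, and the shCont libraries lay on both sides of that band.

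**Figure D2:**
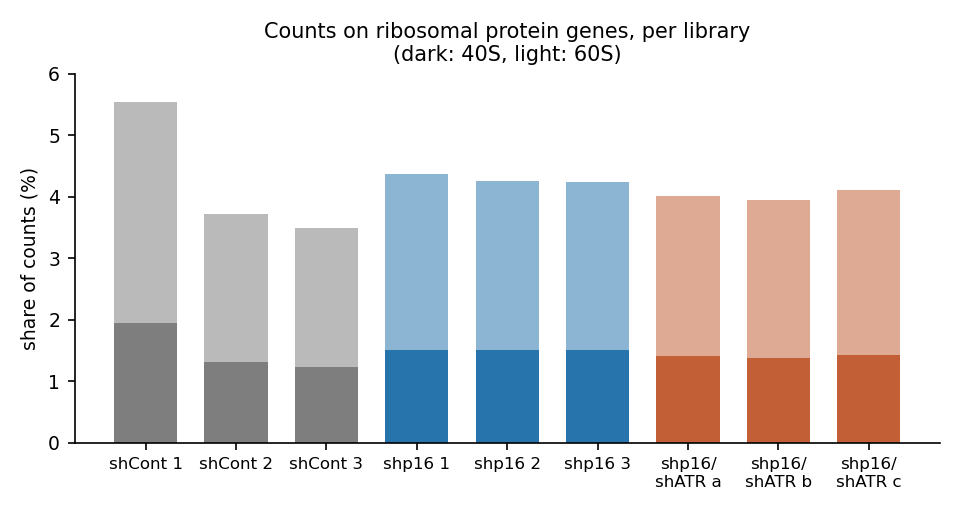
Share of each library's counts on the ribosomal protein genes (%), 40S proteins dark and 60S proteins light, in the 3 shCont (grey), 3 shp16 (blue) and 3 shp16/shATR (orange) libraries. The library labelled shCont replicate 1 reaches 5.55% and the other 8 lie between 3.50% and 4.36%.

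Both subunits took part. In the library labelled shCont replicate 1 the 40S proteins held 1.94% of counts and the 60S proteins 3.60%, against at most 1.32% and 2.40% in the other shCont libraries. Of 76 members, 74 were higher in it than in the mean of replicates 2 and 3, with a median ratio of 1.61 and 59 members above 1.5. Over 13427 genes with a CPM of at least 1 the median ratio was 1.01, and 1606 of them were above 1.5. The exceptions among the members were RPL17 at 0.545 and RPS10 at 0.83, both among the low members described above, and the highest ratios were those of RPS29 at 2.10 and RPL28 at 2.03.

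The rise made that library the highest of the 9 for 71 of the 76 members, a count not made over all genes. Its size varied little with the members' own gene length (correlation of −0.0724 between log2 ratio and log2 length over 70 members with a mean CPM of at least 20, which share the same libraries) and somewhat more with their level (−0.272). Other TOP genes and the ribosome biogenesis genes lay above their own means there as well, by a median of 0.23 and 0.17 on the log2 scale, against 0.48 for the members and 0.03 for all genes. In shp16 replicate 1 the same medians were 0.24 and 0.17, with 0.13 for the members. What sets either library apart was not tested.

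**Figure D3:**
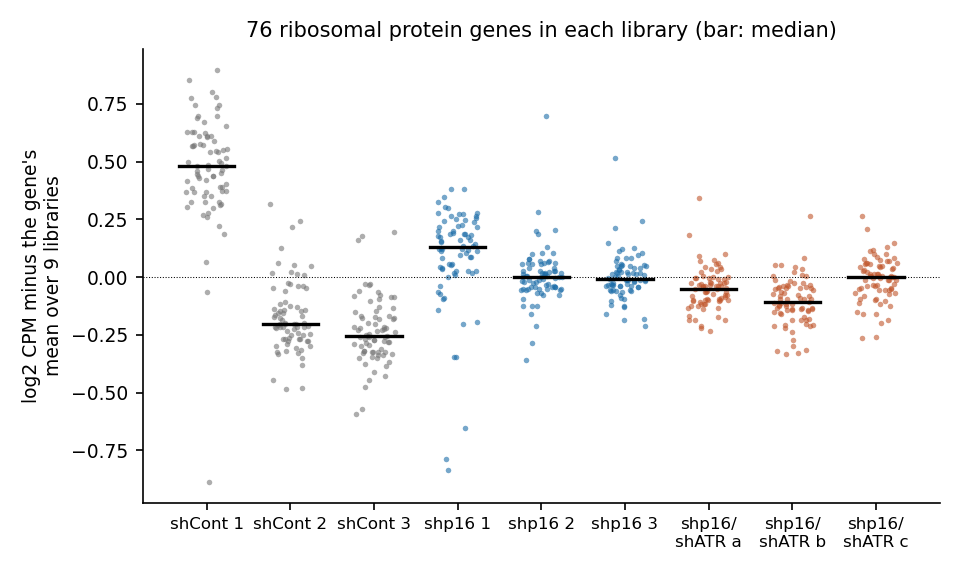
Deviation of each of the 76 tested members from its own mean over the 9 libraries (log2 CPM), with a dot per gene and a bar for the median in each library. The median is 0.48 in the library labelled shCont replicate 1, between −0.25 and −0.20 in the other shCont libraries and between −0.11 and 0.13 in the remaining 6.

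With all 9 libraries, few ribosomal protein mRNAs were called different in cells with the p16 hairpin. Of 76 members tested, 1 rose (RPS6) and 1 fell (RPL26) in shp16 against shCont, while 7.23% of the 15776 genes tested were called higher and 7.59% lower. The members had a median of −0.02 on the log2 scale, the same as all genes tested, with quartiles of −0.14 and 0.09. RPL17 and the second row of RPL26 illustrate the limits of the low members: RPL17 had the largest positive value (0.56) at about 1 CPM, and the second RPL26 row was too low to be tested.

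RPS6, the 40S protein that is phosphorylated by the S6 kinases downstream of mTORC1, was the member that rose. It stood at 646, 442 and 464 CPM in shCont replicates 1 to 3, at 784, 750 and 730 in shp16 and at 616, 598 and 617 in shp16/shATR. Every shp16 library lay above every other library, and the shp16/shATR libraries lay between shp16 and shCont replicates 2 and 3. The log2 fold change in shp16 against shCont was 0.54 (SE 0.14, adjusted p = 0.0236), and 0.73 (SE 0.0767, adjusted p = 5.1e-05) without the library labelled shCont replicate 1. The call with all libraries ended when any one of the other shCont or shp16 libraries was left out (log2 fold change 0.44 to 0.57, adjusted p between 0.0579 and 0.0843), and with only the compared groups in the fit (adjusted p = 0.0841). RPS6 (ENSG00000137154) lies on chromosome 9 from 19375715 to 19380254 in GRCh38, on the minus strand, and overlaps no other row of the table.

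RPL26, a protein at the exit of the peptide tunnel, was the member that fell. Its main row (ENSG00000161970) stood at 5.52, 4.62 and 4.25 CPM in shCont, at 2.08, 2.89 and 3.27 in shp16 and at 3.81, 3.68 and 4.46 in shp16/shATR. The shp16 libraries were below all others, at levels near 3 CPM, far under those of most members. The log2 fold change was −0.80 (SE 0.211, adjusted p = 0.0257), −0.69 (adjusted p = 0.036) without the library labelled shCont replicate 1, and −0.53 (adjusted p = 0.068) without that library and shp16 replicate 1. The call ended also without shCont replicate 2, shp16 replicate 1 or shp16 replicate 2 (adjusted p between 0.0549 and 0.0767) and with only the compared groups in the fit (adjusted p = 0.0713). The row overlaps the other RPL26 row and a row on the opposite strand, so its value may not be that of the whole RPL26 mRNA. RPL36A, X-linked and similarly low, had a log2 fold change of −0.69 (adjusted p = 0.0636), and its shp16 libraries were also the lowest.

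Without the library labelled shCont replicate 1, the highest of the 9 for 71 of the 76 members, most members stood higher in shp16. Then 38 of 76 members were called higher and 1 lower (RPL26), where 13.4% of 16184 genes were called higher and 12.5% lower. The median log2 fold change was 0.26 for the members and −0.01 for all genes tested, 68 members were above 0, and the estimated coefficient of variation between libraries was 0.0903 in place of 0.149. The shCont group of that fit held replicates 2 and 3 only. The members' median was −0.12 with shCont replicate 2 left out instead, and −0.15 with shCont replicate 3 left out instead. The 38 members called higher without the library labelled shCont replicate 1 comprised 13 of 30 proteins of the 40S and 25 of 46 of the 60S subunit. With shp16 replicate 1 left out as well, 46 members were called higher and 0 lower (16.9% and 15.8% of 16104 genes), with a median of 0.21.

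**Figure D4:**
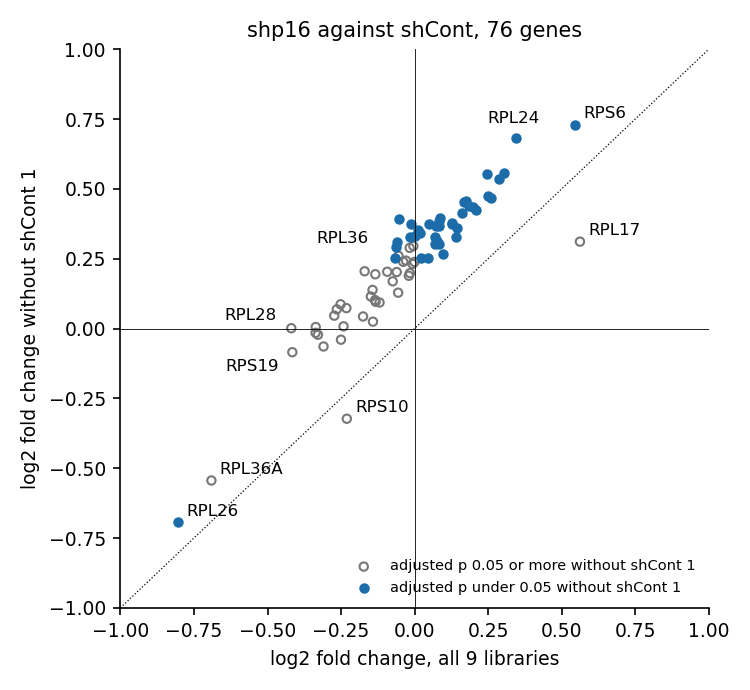
Log2 fold change of shp16 against shCont for the 76 tested members, with all 9 libraries (horizontal axis) and without the library labelled shCont replicate 1 (vertical axis). Nearly all points lie above the dotted line of equal values, and the 39 members called without that library (filled) include RPS6 and RPL24 at the top and RPL26 at the bottom.

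RPL24, a 60S protein at the interface of the subunits, followed RPS6 in size. It stood at 456, 260 and 244 CPM in shCont, at 448, 385 and 389 in shp16 and at 383, 377 and 398 in shp16/shATR. The library labelled shCont replicate 1 lay above all shp16 libraries and the other shCont libraries far below them. The log2 fold change was 0.35 (adjusted p = 0.275) with all libraries and 0.68 (SE 0.0887, adjusted p = 0.00022) without that one. RPL24 was chosen after its values were seen, as were RPL8, RPL10, RPS21, RPL37A, RPL37, RPL28 and RPS19 below.

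Further members with large differences in the reduced fit belonged to both subunits. RPL8 had a log2 fold change of 0.56 (0.30 with all libraries), RPS21 of 0.55 (0.25), RPL10, which joins the 60S subunit late and lies near the peptidyl transferase centre, of 0.54 (0.29), RPL5 of 0.47 (0.25) and RPL4, which lines the peptide tunnel, of 0.47 (0.26). None of these passed the threshold with all libraries. RPL36 stood at 314, 181 and 157 CPM in shCont, at 205, 214 and 204 in shp16 and at 186, 180 and 186 in shp16/shATR. Its shp16 libraries lay inside the span of the shCont libraries but above replicates 2 and 3. The log2 fold change of RPL36 was −0.06 (SE 0.204, adjusted p = 0.867) with all libraries and 0.29 (SE 0.0788, adjusted p = 0.018) without the library labelled shCont replicate 1. RPL36 (ENSG00000130255) lies on chromosome 19 from 5674947 to 5691876 on the plus strand, and shares 46.8% of its span with HSD11B1L on the same strand.

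The shift was not uniform over the class. RPS19, the gene most often mutated in Diamond-Blackfan anaemia, stood at 795, 457 and 431 CPM in shCont, at 382, 435 and 445 in shp16 and at 378, 387 and 366 in shp16/shATR. Its shp16 libraries overlapped shCont replicates 2 and 3 (log2 fold change −0.08, adjusted p = 0.49, without the first shCont library, and −0.42, adjusted p = 0.181, with it). RPL28 stood at 1240, 591 and 631 CPM in shCont, at 678, 575 and 587 in shp16 and at 644, 612 and 614 in shp16/shATR. Here only the library labelled shCont replicate 1 was different, and the log2 fold change went from −0.42 (adjusted p = 0.254) to 0.00 (adjusted p = 0.99) without it. RPL37A gave −0.34 and −0.02 in the same fits.

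**Figure D5:**
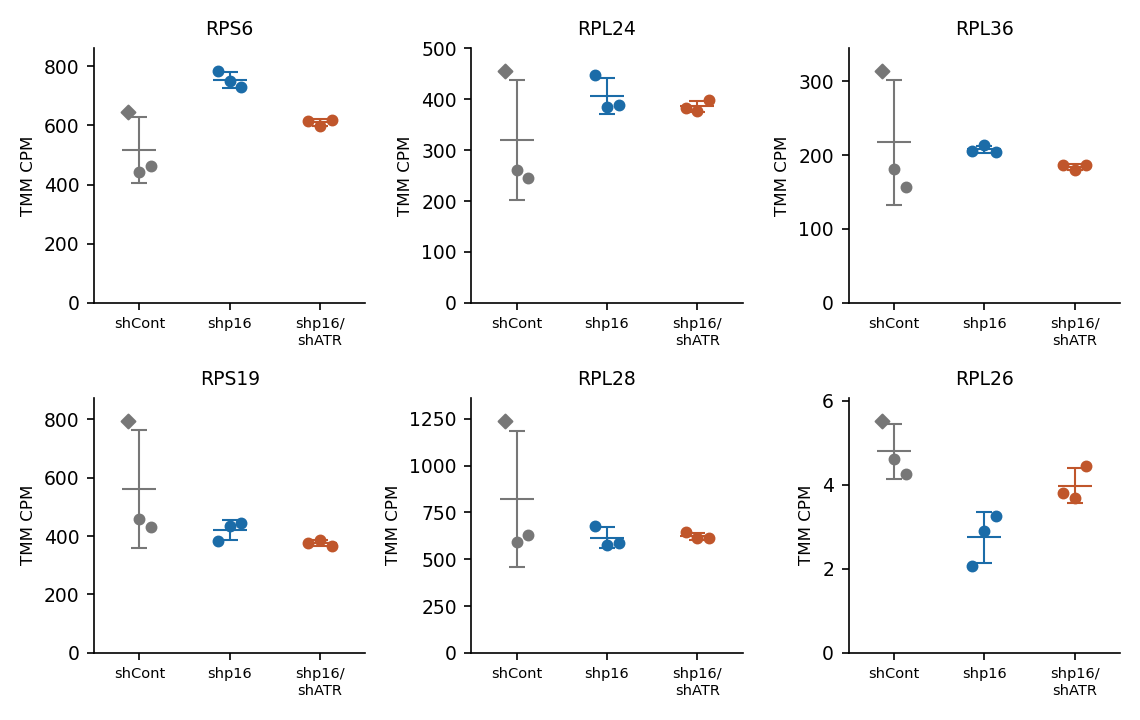
CPM after TMM scaling of 6 members in each library (dots, with the library labelled shCont replicate 1 as a diamond), with the mean and SD of each group as a bar and whiskers, on axes that start at 0. RPS6 has its 3 shp16 libraries above all others, RPL24 and RPL36 have theirs above shCont replicates 2 and 3, and RPS19 and RPL28 have shp16 libraries near those replicates.

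By role, no member of a group other than RPS6 and RPL26 was called in shp16 against shCont with all libraries. The acidic stalk, which recruits the elongation factors, consists of RPLP0, RPLP1 and RPLP2 on the base protein RPL12. Its 4 genes had log2 fold changes between 0.00 and 0.13, none called, and all 4 were called higher (0.33 to 0.39) without the library labelled shCont replicate 1. RPL5 and RPL11, which carry 5S rRNA into the ribosome and can bind MDM2, had 1 call in that fit, RPL5. The counts by role stand beside the 13.4% of all genes called higher and 12.5% called lower in that fit. Of the 8 tested proteins at the tunnel exit, 3 were called higher and RPL26 lower, and of the 11 of the 40S head and decoding region, 5 were called higher. RPSA, the 40S protein also known as the laminin receptor, had log2 fold changes of 0.20 (adjusted p = 0.46) and, without the first shCont library, 0.44 (adjusted p = 0.0044). Of the 4 X-linked members, RPL10 alone was called in that fit, and among 18 tested genes mutated in Diamond-Blackfan anaemia 5 were called higher and 1 lower.

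The start-site motif was counted in the members called higher and in the other members, and the difference was not tested. Among the 31 members called higher in that fit with a RefSeq window, 22 (71.0%) had a start with C followed by 4 C or T bases, and among the 31 other members with a window 24 (77.4%) did. Here a gene was counted if any of its annotated starts had the motif, whereas the 59.7% given above is a share of windows.

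When ATR was also targeted, no member passed the threshold against shp16, and the members moved little. Of 76 members 0 were called in either direction with edgeR, DESeq2 or limma, with 1 higher and 1 lower at an unadjusted p under 0.05 by edgeR, while 2.73% of all genes tested were called higher and 3.49% lower. The median was −0.09 for the members and 0.00 for all genes on the log2 scale, and 66 of 76 members were below 0. In 27 members every shp16/shATR library lay below every shp16 library (20.1% of all genes tested), and in 2, RPL26 and RPL36A, every one lay above (17.6%).

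The largest values belonged to genes named above. RPS6, with the libraries given above, had a log2 fold change of −0.31 (SE 0.139, adjusted p = 0.249), and RPL8 one of −0.28 (adjusted p = 0.434). RPLP2 of the stalk stood at 473, 464 and 456 CPM in shp16 and at 379, 379 and 403 in shp16/shATR, which do not overlap, with a log2 fold change of −0.26 (SE 0.195, adjusted p = 0.512). RPL36 had −0.17 (adjusted p = 0.707), and RPL26 had 0.53 (adjusted p = 0.184). Although the library labelled shCont replicate 1 is in neither group, it enters the estimate of spread: without it 2 members were called lower, RPS6 (−0.30, adjusted p = 0.0075) and RPLP2 (−0.26, adjusted p = 0.026), and 0 higher, against 11% and 8.94% of all genes. With shp16 replicate 1 left out as well, 11 members were called lower and 0 higher (14.3% and 12.4%), with a median of −0.06.

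Against shCont, which also served as control for shp16, the shp16/shATR cells likewise gave no call with all libraries. Of 76 members 0 were called by edgeR, with 0 higher and 4 lower at an unadjusted p under 0.05, against 10.9% of all genes called higher and 12.7% lower. DESeq2 called 3 lower and limma on FPKM 0. The members nearest to the threshold were RPS19 (log2 fold change −0.57, SE 0.197, adjusted p = 0.0551), RPL37A (−0.54, adjusted p = 0.061) and RPL37 (−0.52, adjusted p = 0.0638). For all 3 the shp16/shATR libraries lay below every shCont library. RPS6 had 0.24 (adjusted p = 0.248) and RPL36 −0.24 (adjusted p = 0.437).

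Without the library labelled shCont replicate 1, 20 members were called higher and 1, RPS19 (−0.24, adjusted p = 0.039), lower, against 15.9% and 17.5% of all genes. The median moved from −0.12 to 0.15. RPL24 (0.61, adjusted p = 0.00027) and RPS6 (0.43, adjusted p = 0.0011) were among the members called higher. Of these 20, 19 (95%) were among the 38 members called higher in shp16 in the same fit, which is 50% of the 38, and both comparisons use the same 2 shCont libraries. With shp16 replicate 1 left out as well, 39 were called higher and 4 lower (21.1% and 23.2%).

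Ribosomal proteins and paralogs that the rule leaves out were also measured. FAU and GNB2L1 were called in no comparison with all libraries, and FAU was called higher in shp16 without the library labelled shCont replicate 1. Of the paralogs, RPL10L had 0 counts in every library and 7 were tested. RPL7L1 was the 1 paralog called with all libraries, in shp16/shATR against shCont (log2 fold change 0.32, SE 0.106, adjusted p = 0.0472), with 127, 127 and 135 CPM in shCont and 163, 150 and 173 in shp16/shATR. That call ended with upper-quartile normalization (adjusted p = 0.0556) and without any one of 7 libraries, all but shCont replicate 1 and shp16 replicate 1 (adjusted p between 0.062 and 0.183). RPS27L, a p53-inducible relative of RPS27, had 0.19 in shp16 against shCont (adjusted p = 0.396), and 0.39 (adjusted p = 0.003) without the first shCont library.

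Other genes of the pathway were followed as lists, whose counts stand beside the share of all genes called. Among 24 other TOP genes tested, 1 was called higher in shp16 against shCont, EIF4B, an initiation factor that assists the helicase eIF4A (log2 fold change 0.43, SE 0.112, adjusted p = 0.0243), while 7.23% of all genes were called higher. EIF4B stood at 406, 379 and 429 CPM in shCont, 612, 519 and 508 in shp16 and 574, 550 and 615 in shp16/shATR. The EIF4B call against shCont in shp16 ended without shCont replicate 2, shp16 replicate 1, shp16 replicate 2 or shp16/shATR replicate a (adjusted p between 0.053 and 0.0857) and with only the compared groups in the fit (adjusted p = 0.0922). In shp16/shATR against shp16 none of these genes was called, and against shCont 2 were called higher, with EIF4B largest (0.52, adjusted p = 0.00615), and 2 lower, with COX4I1, a subunit of cytochrome c oxidase, largest (−0.56, adjusted p = 0.0406), beside 10.9% and 12.7% of all genes. The COX4I1 value was −0.26 (adjusted p = 0.0103) without the library labelled shCont replicate 1, and the call ended without any one of the shp16 or shp16/shATR libraries (adjusted p between 0.0546 and 0.127). Without the library labelled shCont replicate 1 the calls were 5 higher and 0 lower, 0 higher and 1 lower, and 5 higher and 2 lower in these comparisons.

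Among 87 ribosome biogenesis genes, 5 were called higher and 6 lower in shp16 against shCont, beside 7.23% and 7.59% of all genes. The largest rise among the called genes was that of RCL1, which acts in 18S rRNA processing (0.68, adjusted p = 0.0064), and the largest fall that of DDX56, a nucleolar helicase (−0.70, adjusted p = 0.0116). In shp16/shATR against shp16, where no ribosomal protein gene was called, 1 biogenesis gene was called higher and 5 lower, beside 2.73% and 3.49% of all genes. RRS1, which helps to bring 5S rRNA into the large subunit, stood at 18.9, 19.7 and 22.2 CPM in shp16 and at 11.4, 10.7 and 10.9 in shp16/shATR (log2 fold change −0.88, SE 0.14, adjusted p = 0.00467). UTP3 was the 1 called higher (0.48, adjusted p = 0.045), a call that ended without shCont replicate 2 or any one of the shp16 or shp16/shATR libraries (adjusted p between 0.0706 and 0.18). Against shCont, 2 were called higher, with RCL1 largest (0.81), and 13 lower, with RRS1 largest, beside 10.9% and 12.7% of all genes. Without the library labelled shCont replicate 1 the calls among these 87 genes were 17 higher and 9 lower in shp16 against shCont (13.4% and 12.5% of all genes), 3 higher and 21 lower in shp16/shATR against shp16 (8.94% and 11%), and 12 higher and 15 lower in shp16/shATR against shCont (15.9% and 17.5%). The difference between the biogenesis genes and the ribosomal proteins was not tested.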

How the data were processed

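RNA of 9 SKMEL28 libraries was prepared and sequenced by Novogene. The authors deposited raw read counts per gene, without normalization, and FPKM values, which were checked to equal the counts scaled by gene length and library total for the shCont and shp16 columns (largest relative difference 4.2e-07). The submitters' processing notes name STAR 2.6.1 and GRCh38, but of 45342 gene identifiers shared with GENCODE 29 the deposited start and end are equal in 261, so GRCh38 coordinates were taken from GENCODE by identifier. The counting tool is not given in the sources used here. The last 3 columns of counts bear an identical heading, so the shp16/shATR libraries are lettered a to c and were not matched to replicate numbers.

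Counts were tested with edgeR 4.0.16 in R 4.3.3 (TMM, filterByExpr, quasi-likelihood test, all 9 libraries, 15776 genes, Benjamini-Hochberg adjusted p of 0.05). SE values are standard errors of the log2 fold change. Checks used DESeq2 1.42.0 and limma 3.58.1 on log2(FPKM + 1) or log2(FPKM + 0.1). The members, the gene lists and the tests were chosen with earlier results of these data known. Genes were named by role, by level, or as the largest called changes. Start-site windows came from RefSeq. The fit was tested on simulated data. Leaving out both shCont replicate 1 and shp16 replicate 1 was chosen after seeing the data. Same-numbered libraries deviated with correlations between −0.30 and 0.29, so numbers were not taken as pairs. Values of some genes are not reported here.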

Additional observations from a re-analysis of the deposited data

How the results depend on the processing

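The number of members called turned most on the library labelled shCont replicate 1. With each library left out in turn, it ranged from 0 to 39 in shp16 against shCont (39 without shCont replicate 1, 0 to 2 otherwise), from 0 to 2 in shp16/shATR against shp16 and from 0 to 21 in shp16/shATR against shCont (21 without shCont replicate 1, 2 without replicate 2 and 5 without replicate 3). With shCont replicate 1 and shp16 replicate 1 both left out the counts were 46, 11 and 43. In shp16 against shCont, 2 members were called with all libraries, 4 with no filter on low counts, 0 with only the compared groups in the fit, 0 at an adjusted p of 0.01 and 10 with the trend of each library with gene length removed. In shp16/shATR against shp16 the count of 0 became 2 with only the compared groups and 1 with the length trend removed. In shp16/shATR against shCont the count of 0 became 3 with DESeq2, 1 with library size only, 7 with no filter and 5 with the length trend removed. The replicate numbers were not taken as pairs, although so few libraries per group cannot exclude a pairing. With a replicate block, the calls in shp16 against shCont were 0 by edgeR, 1 by limma on FPKM and 4 with the length trend also removed. The share of counts was 4.52% in shp16 and 4.23% in shp16/shATR when taken over nuclear genes. RPL36 in shp16 against shCont turned from −0.06 to 0.0044 with the replicate block, to 0.12 with the length trend removed, to 0.16 with both, and to 0.30 with both libraries left out, and with libraries left out in turn ranged from −0.25 to 0.29. In shp16/shATR against shCont it turned from −0.24 to 0.12 with both left out, and ranged from −0.43 to 0.12. RPL28 ranged from −0.61 to 0.0011 and ATR from −0.12 to 0.33 in shp16 against shCont with libraries left out, and ATR was −0.17 with both out. Why these values move was not tested. The other alternatives kept the counts within 1.5 times and the medians of the members within the spread between libraries, which is wide in shCont. Members under about 5 CPM, such as RPL26, RPL36A, RPL17 and RPS10, rest on few counts.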
